A study of Lentinus brumalis with 11 samples.

Results

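A set of 115 of the 18244 predicted genes of the white-rot fungus *Polyporus brumalis* was chosen for a transient fall in transcription at Day 4 of growth on wheat straw. The level of a gene was taken as log2(normalized read count + 1), the count being divided by the median-of-ratios size factor of its library. A gene entered the set when its mean level at Day 4 lay at least 2 below that of the liquid control, its mean level at Day 15 lay within 1 of the control, and its mean level in the control was at least 7. The genes were thus chosen by their control, Day 4 and Day 15 values, so comparisons among these groups describe the choice, and nothing is read from their tests. The Day 10 libraries did not enter the rule. Genes of the study's lists of peroxidases, oxidoreductases, carbohydrate-active enzymes, transporters and detoxification enzymes were to be left out by the rule. The lists as used here held 125 genes, fewer than the study's text counts for its core set, and none of these met the other conditions of the rule. None of the 115 genes was among the 20 single-copy genes of the study's phylogeny.

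White-rot fungi are basidiomycetes that break down lignin as well as the polysaccharides of plant cell walls, with secreted peroxidases, oxidases and hydrolases. In solid-state fermentation (SSF) the mycelium grows on moist solid material with no free water, whereas in liquid malt extract it feeds on dissolved sugars. Transcripts that fall after a transfer to a new medium and later return are well known from the yeast *Saccharomyces cerevisiae*. The predicted genes are known here by number only, without product names, so no function is assigned to any of them.

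The study followed the dikaryotic strain BRFM 985 on wheat straw to find the enzymes behind its selective loss of lignin. The control was mycelium from a 10-day culture in 2% malt extract, with 3 libraries. The SSF groups had 6 days on 2% malt extract and then 4, 10 or 15 days on sterilized wheat straw soaked with mycelium and a solution of copper, iron and manganese salts, with 2 libraries at Day 4, 3 at Day 10 and 3 at Day 15. With the preculture of 6 days given in the labels, total culture time was equal for the control and Day 4 and longer for Days 10 and 15. The study's methods give a longer preculture for the inoculum, with which Day 4 would be longer too. No library was taken at the transfer to straw, so the control is not the starting state of the SSF cultures. Fall and return are meant here relative to the control only. By the study's account the mycelium was ground before it went onto straw, in columns with a stream of moist air. The control was a stationary liquid culture. Medium, metal salts, solid support, grinding at the transfer and aeration thus differed together between the control and SSF and cannot be told apart.

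Total counts ran from 20368063 to 42408348 per library, and 15836 to 16090 genes had a count in each. The third Day 10 library stood apart from the others of its day for this set. It had the lowest of the Day 10 levels for 73 of the 115 genes, against 37.07% of the 15462 genes tested, and the highest for 24, against 35.22% of the genes tested. The counts and medians that rest on Day 10 are therefore given with and without it, as are values of single genes where it changed a call. Genes of the set were spread more widely at Day 10 (median SD 0.30 on the log2 scale) than in the control (0.12), at Day 4 (0.19) or at Day 15 (0.14). Over all genes tested these medians were, in the same order, 0.22, 0.12, 0.14 and 0.14.

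The 115 genes together gave 2.59% ± 0.16 of the reads counted in the control (SD, n = 3). This share was 0.27% ± 0.03 (SD, n = 2) at Day 4, then 1.39% ± 0.33 at Day 10 and 1.97% ± 0.09 at Day 15 (SD, n = 3 each). Library by library, the control had 2.44%, 2.58% and 2.76%, Day 4 had 0.246% and 0.285%, Day 10 had 1.49%, 1.66% and 1.03%, and Day 15 had 2.00%, 1.88% and 2.05%. Every Day 10 library thus lay above every Day 4 library and below every Day 15 and control library. The 3 genes with the most counts in the control gave 45.01% of the counts of the set there, and without them the shares were 1.43%, 0.12%, 0.70% and 1.01% in the same order of groups. In bulk RNA, fewer cells with a transcript and less of it per cell cannot be told apart.

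The fall at Day 4 had a median of -2.46 on the log2 scale and ranged from -8.14 to -2.01; 6.34% of the genes tested lay at least 2 below the control. It was under 3 for 84 genes, at least 3 for 31, at least 4 for 17 and at least 6 for 5. The control level ran from 7.01 to 17.15 with a median of 9.67, close to the median of 9.54 over the 10536 genes tested that had a control level of at least 7. Above a level of 12, which the study uses to mark high transcription, the set had 23 genes in liquid culture and, on straw, 3 genes at Day 4, 17 at Day 10 and 21 at Day 15. All 115 genes passed the filter on low counts, as a control level of 7 or more ensures. All 115 were called lower at Day 4 than in the control, where 32.2% of the genes tested were, and all were called higher at Day 15 than at Day 4, where 28.6% were, but the rule used these groups and nothing is read from either count.

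**Figure D1:**
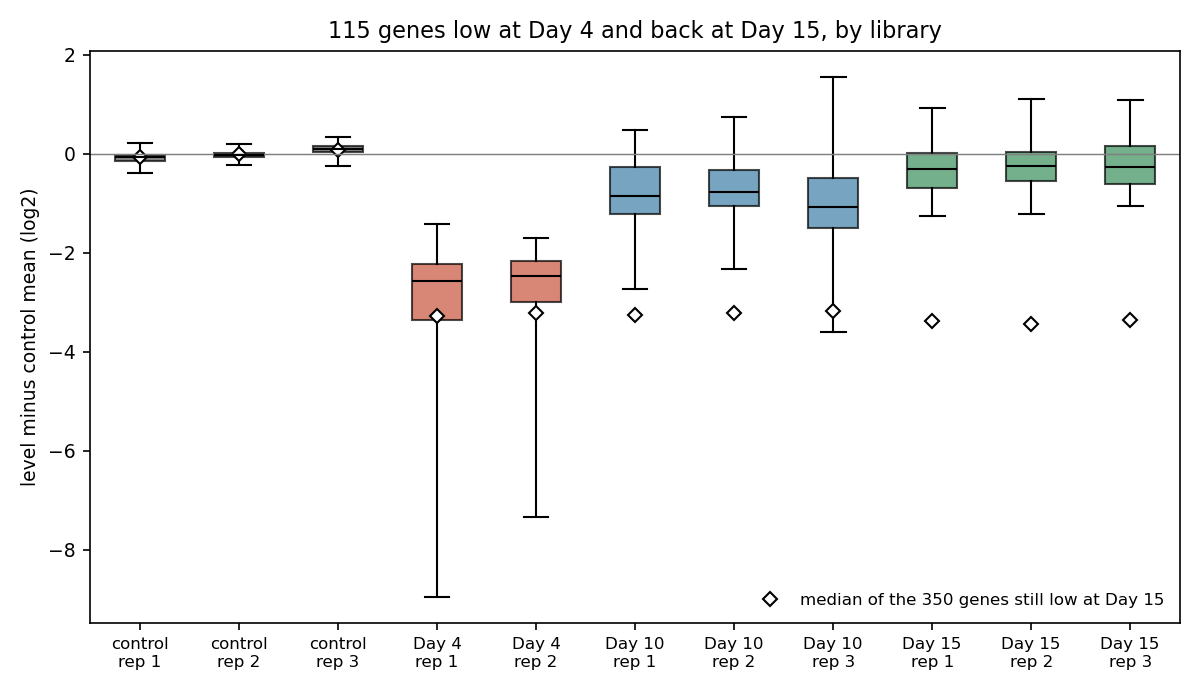
Level of each of the 115 genes minus its control mean (log2 scale) in the 11 libraries, as boxes (quartiles and median) with whiskers to the lowest and highest gene, and the median of 350 genes that were still low at Day 15 as diamonds. The medians of the 115 genes were -2.57 and -2.46 in the Day 4 libraries, -0.84, -0.76 and -1.07 in the Day 10 libraries and -0.31, -0.25 and -0.26 in the Day 15 libraries, while the diamonds stayed low.

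The largest fall was that of gene 1486910, a short gene of 671 bp (start 6140, end 6810 on a scaffold of the Polbr1 assembly that the gene table does not name). Its levels were 15.37, 15.43 and 15.53 in liquid culture, 6.49 and 8.10 at Day 4, then 13.29, 13.69 and 11.84 at Day 10, and 14.77, 15.03 and 15.13 at Day 15. The groups of libraries did not overlap, and the mean normalized count was 44503 in the control and 181 at Day 4. Per kilobase of gene span it had 66323 normalized counts in the control, behind only genes 1394687 with 207129 and 1176664 with 86246, against a median of 703 over the set.

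Gene 911505 (1103 bp, start 23339, end 24441) had levels of 13.74, 13.74 and 13.96 in liquid culture, 6.71 and 6.88 at Day 4, then 12.60, 13.01 and 13.51 at Day 10, and 12.99, 12.98 and 13.48 at Day 15. Day 10 and Day 15 overlapped, and both lay below the control and far above Day 4. Gene 1488153 (989 bp, start 41063, end 42051) had 13.68, 13.76 and 13.96 in liquid culture, 7.57 and 7.91 at Day 4, then 13.40, 13.83 and 13.03 at Day 10, and 14.09, 14.21 and 14.29 at Day 15. Its Day 10 libraries overlapped the control, and its Day 15 libraries were the highest of all.

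Gene 1488264 (765 bp, start 98599, end 99363) was almost without reads at Day 4. Its levels were 7.58, 7.51 and 7.96 in liquid culture, 0.00 and 1.92 at Day 4, then 6.53, 6.89 and 6.11 at Day 10, and 7.54, 7.97 and 8.03 at Day 15. The Day 4 levels stand for 0 and 2 reads, so the ratio of the control to Day 4 was 161 with an exact 95% counting interval of 44.5 to 1332, which covers counting error only. Gene 332446, with 0 and 9 reads at Day 4, was the other gene of the set with a count of 0 in a library, and its ratio was 22.6 with an interval of 11.9 to 49.7.

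The highest control levels of the set, before any division by gene length, were those of genes 1394687, 1176664 and 1488268. Gene 1394687 (710 bp, start 94566, end 95275) had levels of 16.82, 17.20 and 17.42 in liquid culture, 14.71 and 15.26 at Day 4, then 16.88, 17.21 and 15.65 at Day 10, and 17.23, 16.95 and 17.02 at Day 15. Day 4 lay clear of the control, Day 15 and most of Day 10 were within its range, and the third Day 10 library lay between the control and Day 4. Gene 1176664 (993 bp, start 80736, end 81728) had 16.33, 16.42 and 16.41 in liquid culture, 13.43 and 13.52 at Day 4, then 15.75, 15.94 and 14.96 at Day 10, and 16.07, 16.24 and 16.24 at Day 15. Here the 4 groups did not overlap and their order was Day 4, Day 10, Day 15 and control. Gene 1488268, the longest of the set at 4734 bp (start 111317, end 116050), had 15.48, 15.50 and 15.43 in liquid culture, 11.78 and 11.51 at Day 4, then 15.46, 15.51 and 14.57 at Day 10, and 15.97, 15.96 and 16.03 at Day 15. Its first 2 Day 10 libraries were at the control level, and all Day 15 libraries were above it.

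**Figure D2:**
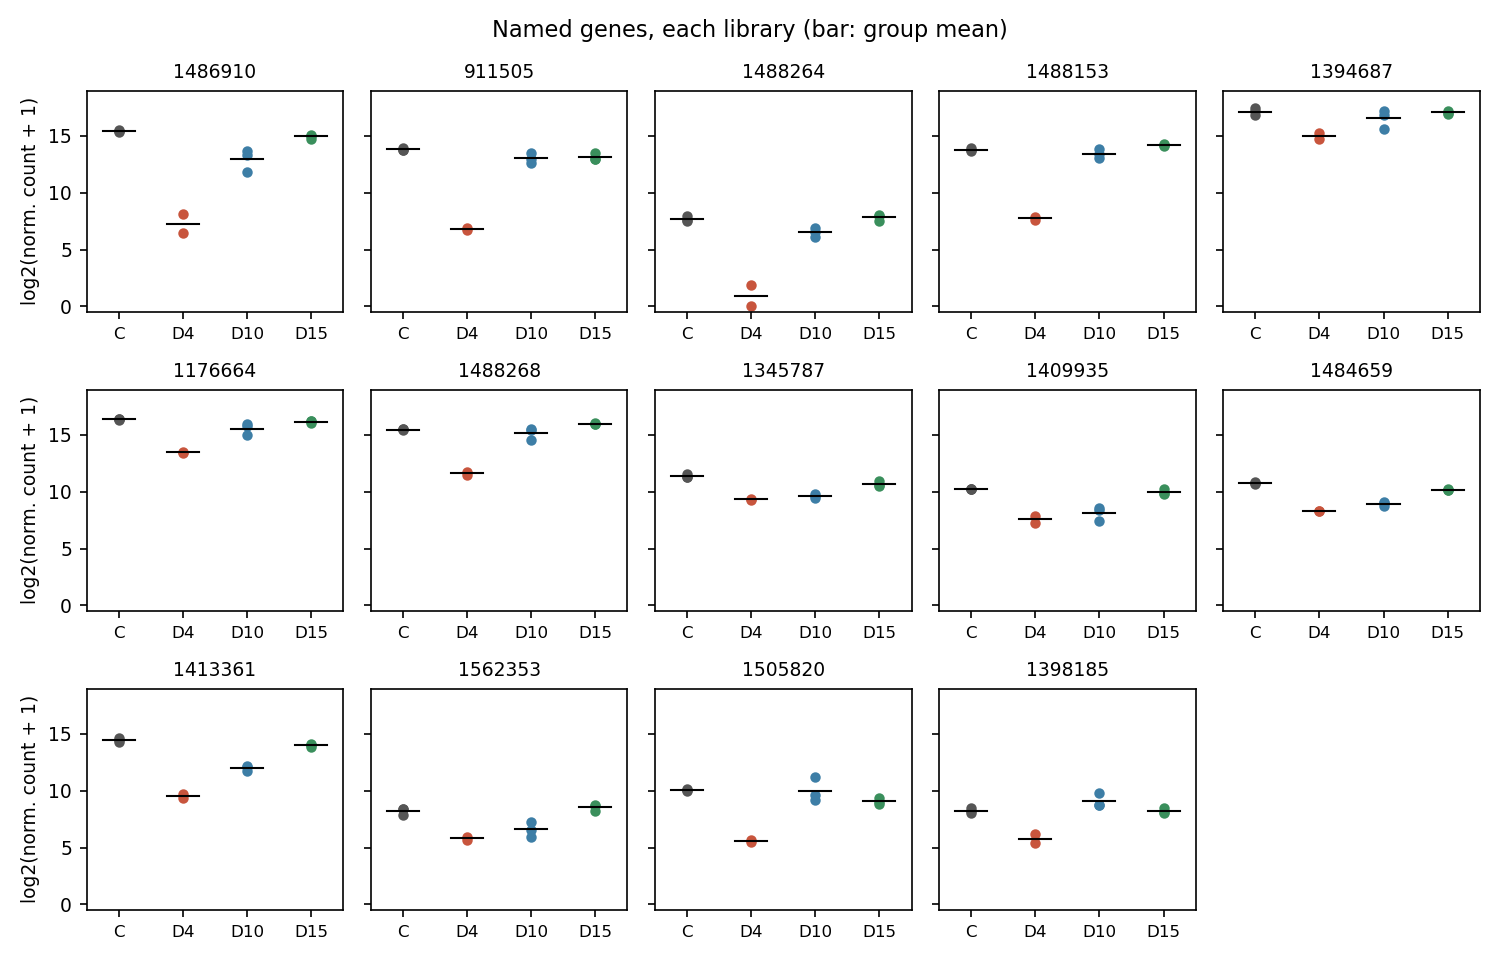
Levels (log2 of normalized count + 1) of 14 genes of the set in each library of the control (C) and of Days 4, 10 and 15 (D4, D10, D15), with points for libraries and bars for group means. Day 4 is the lowest group mean for every gene drawn, and the Day 10 points range from within the range of Day 4 (1 library each of genes 1409935 and 1562353) to above the control (gene 1398185).

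Day 10 was used to ask how near the genes were to the control level by the middle of the fermentation. Relative to the control, their mean Day 10 level had a median of -0.87 and ranged from -2.53 to 0.85, while the median over all genes tested was -0.02. Of the 115 genes, 71 were back within 1 of the control, 38 were 1 to 2 below it, 6 were still at least 2 below it, and none was 1 or more above it. Among all genes tested, 71.5% were within 1 of the control at Day 10, 14.4% at least 1 below it and 4.59% at least 2 below it. In the single Day 10 libraries the number of genes back was 70, 80 and 51, and the number still low was 5, 2 and 11, the third library having the fewest back. Without that library, with the size factors kept, 77 genes were back, 36 were 1 to 2 below and 2 were still low, and the median difference from the control was -0.77.

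The share of the Day 4 fall that had been made up by Day 10, with 0 for the Day 4 level and 1 for the control level on the log2 scale, had a median of 0.67 over the set (quartiles 0.53 and 0.89). In the Day 10 libraries taken singly the median was 0.73, 0.73 and 0.62, and it was 0.70 without the third. The 17 genes with a fall of at least 4 had a median of 0.89, and 10 of them were back within 1 of the control while 3 were still low. For the 14 genes with a fall of 3 to 4 the median was 0.66, with 6 back and 2 still low. The 84 genes with a fall under 3 had a median of 0.63, with 55 back and 1 still low. The fall is the denominator of this share, so these medians are given as values only.

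In edgeR's quasi-likelihood test over all 15462 genes, 112 of the 115 genes were higher at Day 10 than at Day 4 and none was lower, where 22.3% of the genes tested were higher and 22% lower. The Day 10 levels of the same number of genes, 112, lay above Day 4 in every library, as did those of 27.9% of the genes tested. The Day 4 libraries had chosen these genes for low levels, which favours a rise from them, so the counts describe the set and are no separate evidence of a rise. The median difference of levels was 1.72, with a range of 0.26 to 6.25, against -0.01 over all genes tested. Without the third Day 10 library 114 genes were called higher, the median difference was 1.82, and all 115 genes lay above Day 4 in both other Day 10 libraries. Shares over all genes tested are not given without this library, so nothing is read from these counts.

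The rises from Day 4 to Day 10 were largest for genes 911505, 1488264 and 1488153, whose levels are given above. In gene 911505 the log2 fold change was 6.34 (standard error 0.31, adjusted p = 9.4e-09, edgeR). For gene 1488264 it was 6.06 (standard error 0.60, adjusted p = 3.9e-06), and for gene 1488153 5.74 (standard error 0.25, adjusted p = 3.9e-09). In all of them every Day 10 library lay far above both Day 4 libraries. The Day 4 libraries had entered the choice of the set, and these genes were named for the size of their rise. Their p-values therefore describe them and are no separate evidence of a rise. The same holds for the p-values of Day 10 against Day 4 given below.

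The smallest differences between Days 4 and 10 were those of genes 1345787, 1409935 and 1484659. Gene 1345787 had levels of 11.34, 11.33 and 11.54 in liquid culture, 9.30 and 9.41 at Day 4, then 9.47, 9.79 and 9.59 at Day 10, and 10.52, 10.92 and 10.61 at Day 15. Day 10 lay just above Day 4 without overlap, and the test of its fold change, 0.29 on the log2 scale (standard error 0.14), was not passed (adjusted p = 0.098). Gene 1409935 had 10.23, 10.23 and 10.28 in liquid culture, 7.23 and 7.90 at Day 4, then 8.38, 8.58 and 7.46 at Day 10, and 9.84, 10.23 and 9.85 at Day 15. The third Day 10 library lay between those of Day 4, and the fold change of 0.64 (standard error 0.28, adjusted p = 0.08) did not pass. Without that library it was 0.93 and passed (adjusted p = 0.0015). Gene 1484659 had 10.67, 10.73 and 10.88 in liquid culture, 8.35 and 8.33 at Day 4, then 9.03, 9.11 and 8.72 at Day 10, and 10.18, 10.22 and 10.16 at Day 15. Its groups were all separate, and its fold change of 0.65 (standard error 0.12, adjusted p = 0.00093) passed. The third gene that did not pass was 1562353, with a fold change of 0.88 (standard error 0.35, adjusted p = 0.06), which was 1.17 and passed without the third Day 10 library (adjusted p = 0.007). Gene 1345787 did not pass without it either (0.33, adjusted p = 0.08).

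**Figure D3:**
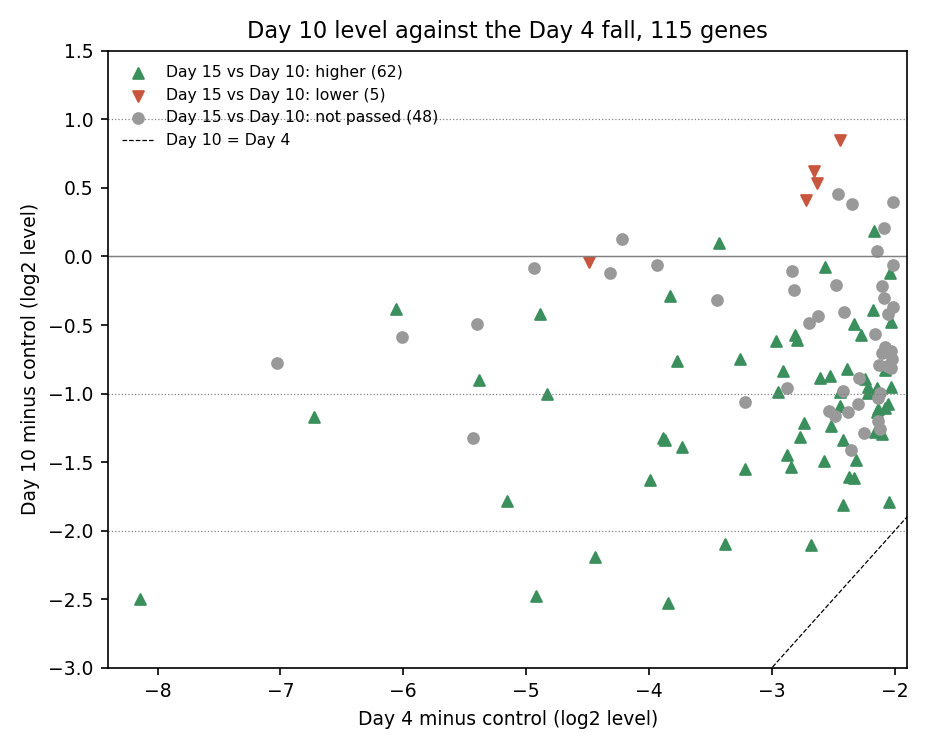
Day 10 level minus control against Day 4 level minus control (both log2) for the 115 genes, marked by the edgeR call of Day 15 against Day 10 (62 higher, 5 lower, 48 not passed). Dotted lines mark 1 above, 1 below and 2 below the control, and every gene lies above the dashed line of equal Day 4 and Day 10 levels.

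Against the control, 84 genes were called lower at Day 10, where 31.1% of the genes tested were, and 6 were called higher, where 31.5% were. The remaining 25 did not pass. The control libraries had entered the rule, and a choice for high control levels favours lower calls against them. These counts therefore describe the set and are no separate evidence that it was low at Day 10. The levels of 82 genes lay below the control in every Day 10 library (33% of the genes tested) and those of 6 lay above it in every library (33.4%). Without the third Day 10 library 83 were called lower and 8 higher, and 86 lay below and 10 above the control in both other Day 10 libraries, a condition that fewer libraries meet more easily. Here too the shares over all genes tested are not given, and nothing is read from these counts. The 6 genes still at least 2 below the control were 1340262, 1413361, 1409935, 1486910, 1481680 and 1324491, picked out after their values were seen. Their log2 fold changes against the control ran from -2.53 for gene 1340262 to -2.06 for gene 1409935, and all 6 were called lower at Day 10. Of these, 1340262, 1481680 and 1324491 are short gene models of 219, 269 and 216 bp, against a median of 1202 bp over the set and 1447 bp over all genes.

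At Day 15, 62 genes were called higher than at Day 10, where 11.7% of the genes tested were, and 5 were called lower, where 12.4% were. The Day 15 levels of 69 genes lay above Day 10 in every library (19.4% of the genes tested), and those of 5 lay below it (18.8%). The Day 15 libraries had entered the rule through their nearness to the control, which favours a rise for genes that were low at Day 10. Of the 84 genes lower than the control at Day 10, 56 were called higher at Day 15 than at Day 10 and 28 did not pass. Without the third Day 10 library 58 were called higher and 4 lower, with no share over all genes given for that fit. In group means, 102 genes had a higher mean at each step from Day 4 to Day 10 to Day 15, and 13 had a Day 10 mean above that of Day 15. At Day 15 itself 84 genes had a mean below the control and 31 above it, with a median difference of -0.28. In the test, 47 were lower than the control and 13 higher, where 33% of the genes tested were called in each direction, but the rule had bounded this difference.

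The largest rises from Day 10 to Day 15 were those of genes 1413361 and 1562353. Gene 1413361 (1141 bp, start 5839, end 6979) had levels of 14.34, 14.44 and 14.65 in liquid culture, 9.41 and 9.70 at Day 4, then 11.75, 12.16 and 12.08 at Day 10, and 13.89, 14.09 and 14.00 at Day 15. Its groups were all separate, with Day 10 about midway between Day 4 and the control. From Day 10 to Day 15 its log2 fold change was 1.98 (standard error 0.13, adjusted p = 3.4e-06). Gene 1562353 had 7.83, 8.40 and 8.39 in liquid culture, 5.96 and 5.71 at Day 4, then 6.59, 7.26 and 5.95 at Day 10, and 8.73, 8.25 and 8.70 at Day 15. The third Day 10 library was within the range of Day 4, and Day 15 overlapped the control. The fold change from Day 10 to Day 15 was 1.89 (standard error 0.27, adjusted p = 0.00041). Gene 1486910 also rose, by 1.85 (standard error 0.39, adjusted p = 0.0043), and still lay below the control in every Day 15 library.

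Only 5 genes were called lower at Day 15 than at Day 10, and 4 of these were called higher than the control at Day 10. The largest falls from Day 10 to Day 15 were those of genes 1505820 and 1398185. Gene 1505820 (1215 bp, start 76461, end 77675) had levels of 10.06, 10.00 and 10.13 in liquid culture, 5.65 and 5.50 at Day 4, then 9.22, 9.64 and 11.21 at Day 10, and 8.81, 9.03 and 9.37 at Day 15. Of its Day 10 libraries, only the third was above the control. The first lay within the range of Day 15, and the second lay between Day 15 and the control. Its log2 fold change from Day 10 to Day 15 was -1.21 (standard error 0.38, adjusted p = 0.036), and without the third Day 10 library it was -0.36 (adjusted p = 0.12). Against the control it was 0.22 at Day 10 (adjusted p = 0.63), and -0.63 (adjusted p = 0.0027) without that library. Gene 1398185 (2074 bp, start 956025, end 958098) had 8.07, 8.19 and 8.47 in liquid culture, 6.24 and 5.37 at Day 4, then 8.71, 8.77 and 9.80 at Day 10, and 8.07, 8.15 and 8.50 at Day 15. All its Day 10 libraries were above all others, and control and Day 15 overlapped. Its fold change from Day 10 to Day 15 was -0.93 (standard error 0.27, adjusted p = 0.026), and -0.49 (adjusted p = 0.079) without the third Day 10 library. The calls of both genes also ended in some fits that left out another library, such as the first Day 15 library (adjusted p = 0.11 and 0.085).

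The other genes called lower at Day 15 than at Day 10 were 238104, 452994 and 1450222, which were also called higher than the control at Day 10. Gene 1450222 had levels of 13.81, 13.86 and 13.99 in liquid culture, 11.19 and 11.13 at Day 4, then 14.25, 14.32 and 14.33 at Day 10, and 13.71, 13.79 and 13.84 at Day 15. Its 3 Day 10 libraries were the highest and close together, and Day 15 overlapped the control. Against the control its Day 10 log2 fold change was 0.39 (standard error 0.09, adjusted p = 0.0017), and from Day 10 to Day 15 it was -0.52 (standard error 0.09, adjusted p = 0.0012). Gene 238104 had 8.88, 8.93 and 8.93 in liquid culture, 6.24 and 6.27 at Day 4, then 9.32, 9.22 and 10.06 at Day 10, and 8.43, 8.84 and 8.88 at Day 15. Here too Day 10 was above all other libraries. Gene 452994 had 9.44, 9.60 and 9.67 in liquid culture, 6.51 and 7.38 at Day 4, then 10.06, 10.05 and 10.20 at Day 10, and 9.61, 9.61 and 9.76 at Day 15. Its fall of -0.45 from Day 10 to Day 15 (adjusted p = 0.046) no longer passed when any 1 library of the control, Day 10 or Day 15 was left out (adjusted p = 0.054 to 0.14). The Day 10 rises of 238104, 452994 and 1450222 over the control did not pass when only library totals were used for scaling (adjusted p = 0.069, 0.10 and 0.11), and of the 6 genes higher than the control at Day 10 only 1 was then called. The other members of these 6, genes 804418 and 1377624, did not pass between Days 10 and 15 (adjusted p = 0.51 and 0.063). These 5 genes were picked out after their values were seen.

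The 350 genes with a fall of at least 2 at Day 4 and the same control minimum that were still at least 2 below the control at Day 15 served for comparison. Genes with such a fall that lay 1 to 2 below the control at Day 15 were in neither set. The 350 genes had fallen further, with medians of -3.28 and -3.21 in the Day 4 libraries, against -2.57 and -2.46 for the 115. At Day 10 their median difference from the control was -3.20, against -0.87 for the 115 genes, and their median difference from Day 4 was 0.12, against 1.72. Only 4 of the 350 were back within 1 of the control at Day 10, and 313 were still at least 2 below it. Without the third Day 10 library the medians of the 350 genes were -3.19 and 0.08, with 3 back and 320 still low. Between Days 4 and 10, 93 of the 350 were called higher and 52 lower, where 22.3% and 22% of the genes tested were. Between Days 10 and 15, 25 were called higher and 92 lower, where 11.7% and 12.4% of the genes tested were. The sets were separated by their Day 15 levels, so the Day 10 values stand side by side without a test.

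The position of the genes did not enter the rule. A neighbour was taken as the next predicted gene on either side in the order of the gene table, at most 5000 bp away. Of 216 tested neighbour places of the 115 genes, 16 (7.41%) were held by another gene of the set, against 0.749% for the neighbours of all genes tested. At Day 4, 38 of these places (17.6%) held a gene at least 2 below the control, against 6.19%, and 89 (41.2%) one at least 1 below it, against 17.6%. Without the places held by genes of the set, 36.5% of 200 immediate neighbours were at least 1 below the control. Still without genes of the set, 24.4% were at 2 genes away, 23.5% at 3, 17.3% at 4, 16.4% at 5 and 18.5% at 6, while 17.3% to 17.7% were for the neighbours of all genes tested. Of the 73 immediate neighbour places outside the set that were at least 1 below the control at Day 4, 36 (49.3%) were within 1 of it at Day 15. This held for 45% of the 2777 genes tested with such a fall. The 2777 genes include the 115 of the set, which the rule placed within 1 at Day 15, and the 73 places leave them out. The shares are thus not alike and nothing is read from them.

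Overlap of gene models bears on these values. By the labels the libraries were made with a TruSeq RNA kit of the version that does not mark the strand, and without strand reads from overlapping genes cannot be told apart. Of the set, 29 genes (25.2%) overlapped another predicted gene, as did 24.7% of all genes. Genes 238104, 332446, 482949, 804418, 1345787, 1406203, 1413361, 1481680, 1483751 and 1505820 were among them, so their levels are uncertain in that respect. With only neighbours whose models do not overlap each other, 10 of 183 neighbour places (5.46%) were held by a gene of the set, against 0.748%. At Day 4, 36.6% of them held a gene at least 1 below the control, against 18%. Models that overlap a gene on their other side, such as 1406203, were kept, so overlap was only partly removed.

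**Figure D4:**
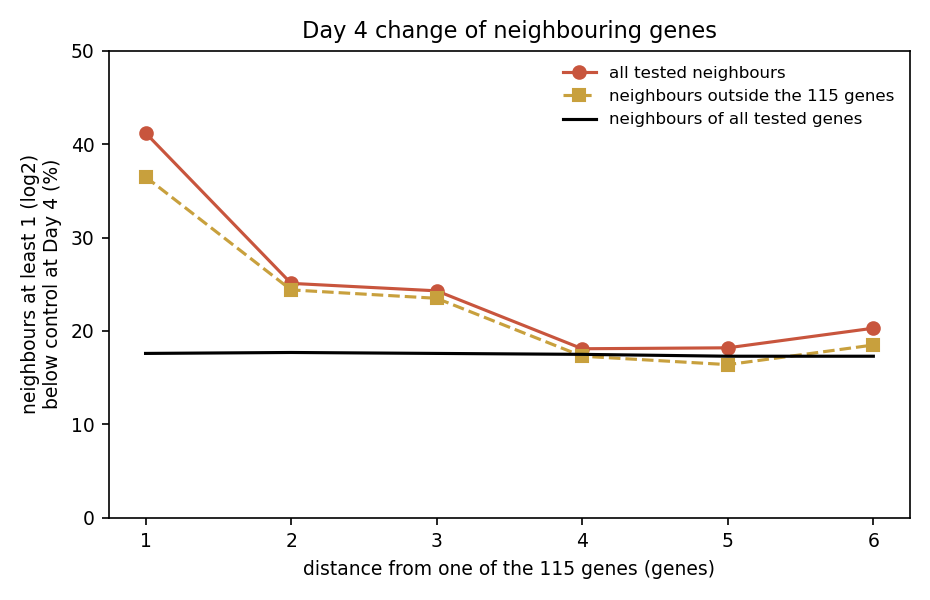
Share of tested neighbours (%) that lay at least 1 below the control at Day 4 on the log2 scale, by distance in genes from a gene of the set, for all neighbours, for neighbours outside the set, and for the neighbours of all genes tested. The share fell from 41.2% at 1 gene to 18.1% at 4 genes, where it met the line of all genes tested.

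There were 8 pairs of adjacent genes of the set, of which 3 pairs overlapped. Among the pairs that did not overlap, genes 790615 and 1406203 lay 1212 bp apart and had Day 4 differences of -4.83 and -5.40; this pair was picked out after its values were seen. Gene 790615 had levels of 12.23, 12.41 and 12.63 in liquid culture, 7.60 and 7.59 at Day 4, then 11.29, 11.33 and 11.65 at Day 10, and 12.00, 12.13 and 12.67 at Day 15. Gene 1406203 had 12.69, 12.83 and 12.89 in liquid culture, 7.25 and 7.56 at Day 4, then 12.10, 12.30 and 12.52 at Day 10, and 12.37, 12.37 and 12.96 at Day 15. In both, Day 4 was far below every other library and Day 15 overlapped the control. Gene 1488264, nearly silent at Day 4, lay 1420 bp from gene 1458567, which was also picked out after its values were seen. The latter had levels of 13.50, 13.50 and 13.55 in liquid culture, 10.01 and 10.17 at Day 4, then 13.54, 13.79 and 13.53 at Day 10, and 14.15, 14.13 and 14.23 at Day 15. It had reached the control by Day 10 and was above it in every Day 15 library, whereas gene 1488264 was still below it at Day 10.

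At the limits of the rule, genes 1483751 and 819543 were just inside the fall of 2, at -2.01 and -2.02, and genes 49774 and 1421520 just outside it, both at -1.99. On the low side at Day 15, genes 1505820 and 1403300 were just inside, both at -0.99, and genes 1428616 and 1474277 just outside, at -1.004 and -1.011. On the high side, genes 482949 and 1395134 were inside, at 0.96 and 0.91, and genes 1406966 and 1403104 outside, both at 1.05. For the control level, genes 1466568 and 332446 were inside, at 7.01 and 7.03, and genes 1475566 and 1481532 outside, at 6.95 and 6.93.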

How the data were processed

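The authors trimmed reads with Sickle (quality 20, length 20), used TopHat2 for mapping to the genome of a monokaryon obtained from BRFM 985, kept unique mappings and deposited HTSeq counts of reads per gene. The submitters' processing notes name DESeq 1.5. Mapper and counter versions, and how strand was counted: not given in the sources used here. Labels and paper give triplicates where Day 4 has 2 libraries here, and the cultures are called biological replicates. Unique mapping lowers the counts of near-identical genes. All 11 libraries entered, and 0 columns were unused.

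From the deposited counts, levels were computed with median-of-ratios size factors and a pseudocount of 1 (Python 3.11.15, numpy 2.4.6, pandas 2.3.3, scipy 1.17.1, matplotlib 3.10.9). Groups were compared with edgeR 4.0.16 (R 4.3.3, limma 3.58.1): filterByExpr (minimum count 10, minimum total 15), TMM scaling, the quasi-likelihood F test in 1 model of the 4 groups (7 residual degrees of freedom), and a limit of 0.05 on p-values adjusted by Benjamini-Hochberg over all genes tested. The standard error of a log2 fold change was obtained as its size over the root of F. The scripts were tested on simulated data. The members and lists were chosen with earlier results of these data known. Genes named are those with the 4 largest falls at Day 4, the 3 highest control means, the 3 largest and 3 smallest fold changes of Day 10 against Day 4, the 2 largest rises and 2 largest falls from Day 10 to Day 15 among those called, and the 2 genes on each side of each limit. Others are said to have been picked after their values were seen.

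Of 18244 gene numbers, 18240 matched locus tags of RefSeq's table of the Polbr1 assembly, including all 115 of the set, and positions come from it. Alternatives were other scalings, filters, limits and pseudocounts, the DESeq2 1.42.0 Wald test, a fold minimum, only the groups compared, a replicate block and each library left out.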

Additional observations from a re-analysis of the deposited data

Results flagged for a closer look

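Differences from the control at Day 10 and at Day 15 were compared through the direct test of Day 15 against Day 10, since the control is the same for both. The difference changed upward for 62 of the 115 genes and downward for 5, where 11.7% and 12.4% of the genes tested were called in these directions (edgeR's quasi-likelihood test with Benjamini-Hochberg adjustment). The Day 15 libraries had entered the choice of the genes, which favours a change upward. Gene 1413361 had the largest change upward among these, 1.98, and gene 1562353 the next, 1.89, and both passed in every fit that left out 1 library. The largest changes downward were -1.21 for gene 1505820 and -0.93 for gene 1398185, and neither passed without the third Day 10 library. No group of the study had 4 or more libraries, so no single library was tested as far from the rest of its group.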

How the results depend on the processing

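The size of the set depended on scaling and limits: 212 genes met the rule with library totals (93 of them among the 115), 279 with a fall of 1.5, 55 with a fall of 2.5 and 261 without a control minimum, and 109 to 128 with 1 library left out. It was 122 with TMM, 116 with a pseudocount of 0.5 and 114 with the log2 of the group mean. Scaling by library totals only shifted the median of all genes from -0.07 to -0.45 for Day 4 against the control, from -0.02 to -0.25 for Day 10 against the control and from 0.03 to 0.17 for Day 10 against Day 4, and the share of higher among all calls from 48.3% to 28.5%, 50.4% to 35.6% and 50.4% to 64.7%. Relative to that median the 115 genes stayed at -2.45, -0.83 and 1.76. A change of scaling moves all genes by about the same amount, so this had to hold and is no sign of stability. With library totals, 1 gene was called higher at Day 10 than in the control, where 3554 of the 15462 genes tested were. At Day 15 6 were higher and 72 lower than in the control, where 3766 and 6806 of the genes tested were. The rule had bounded this Day 15 difference. When the test asked for a log2 change over 1, which is stricter by construction, 0 genes were called higher and 20 lower at Day 10 than in the control, and 0 in either direction at Day 15. It called 68 genes higher at Day 10 than at Day 4, and 4 genes rose and 0 fell from Day 10 to Day 15. Shares over all genes under this limit are not given, so nothing is read from these counts.

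With 1 library left out, 107 to 114 genes were higher at Day 10 than at Day 4. Against the control, 4 to 8 were higher and 74 to 84 lower at Day 10, and 10 to 17 higher and 38 to 58 lower at Day 15. From Day 10 to Day 15, 54 to 67 were higher and 2 to 5 lower. Shares over all genes are not given for these fits, so the ranges show only how far the counts moved. At Day 10, 59 to 76 genes were back, 36 to 49 were 1 to 2 below, 2 to 6 still low (2 without the third Day 10 library) and 0 to 1 above, and the median share made up was 0.65 to 0.70. Directions turned for gene 1488268 against the control at Day 10 (-0.40 to 0.0008, the latter without the third Day 10 library), gene 1505820 in the same comparison (-0.63 without that library to 0.55 without the first, and -0.0017 with the replicate block) and gene 911505 from Day 10 to Day 15 (-0.12 without the first Day 10 library, -0.11 without the third Day 15 library, up to 0.34). None of these was past the threshold with all libraries. Over the genes named, 894 values kept their call and direction, 54 lost and 16 gained a call; the cause was not tested. Gene 1176664 from Day 10 to Day 15 (0.57, adjusted p = 0.04) was among those that lost it (adjusted p = 0.11 without the second Day 15 library; 0.33 on the log2 scale and still past the limit without the third Day 10 library).

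Replicate numbers were shared between groups, but no source pairs the cultures, and in no comparison with 3 shared numbers did every pair deviate together with r over 0.1 (0.08, 0.07 and 0.05 between Days 10 and 15, 0.15, 0.0025 and 0.09 between Day 10 and the control, 0.05, -0.02 and 0.0082 between Day 15 and the control, across 15462 genes). Day 4 shares only 2 numbers with each group, with r of 0.18 and 0.19 to Day 10, 0.07 and 0.08 to Day 15, and 0.15 and -0.02 to the control. A replicate block gave 113 genes higher at Day 10 than at Day 4, 7 higher and 86 lower at Day 10 than in the control, and from Day 10 to Day 15 66 higher and 5 lower. Shares over all genes are not given for this fit, and nothing is read from its counts. With the block genes 1409935 (Day 10 against Day 4, adjusted p = 0.027) and 1488153 (Day 10 against the control, adjusted p = 0.049) passed. With 2 libraries at Day 4, spread there is the least well measured, and counts of 0 to 9 reads limit genes 332446 and 1488264.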
